A study of Homo sapiens with 10 samples.

Results

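Metallothioneins are small intracellular proteins whose many cysteines bind zinc and copper and, on exposure, cadmium. In liver they store zinc and buffer metals, and their genes are transcribed when the zinc-sensing factor MTF1 binds metal response elements in their promoters, as well as in response to glucocorticoids and oxidants. MT2A and the MT1 genes are made in many tissues, while MT3 is known mainly from brain. The 9 genes described here are MT1A, MT1E, MT1F, MT1G, MT1H, MT1M, MT1X, MT2A and MT3, chosen by name out of 58302 genes listed by Ensembl identifier in each deposited table, and all 9 were found there.

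RNA-seq had been made from 10 libraries of human liver cancer cell lines, 1 library per condition, so no condition had a replicate and no difference between conditions was tested. SK-hep1 cells carried a mock control, PSPC1 alone, PSPC1 with PTK6, the mutant PSPC1-Y523F alone, or the mutant with PTK6. Mahlavu cells carried a mock control, PSPC1-CT131, which is a C-terminal fragment of PSPC1, or Mut-NLS-CT131, the fragment with a mutated nuclear localization sequence. Huh-7 cells, which carried no construct, were untreated or given 10 ng/ml hepatocyte growth factor (HGF) for 48 h. PSPC1 is a paraspeckle RNA-binding protein, PTK6 is a nonreceptor tyrosine kinase, and Y523F replaces a tyrosine of PSPC1 with phenylalanine. The comparisons address what PSPC1 does to gene expression with and without that kinase, what its C-terminal fragment does with an intact or a mutated nuclear localization sequence, and what HGF does. The constructs came from plasmids, and with 1 library each an effect of a construct and a difference between cell populations cannot be told apart.

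Libraries held between 15245935 and 24278662 reads on genes. The constructs were visible in SK-hep1, where PSPC1 had 0 reads in mock and 7.01 FPKM with PSPC1, 26.4 with PSPC1/PTK6, 2.28 with PSPC1-Y523F and 70.9 with PSPC1-Y523F/PTK6. PTK6 stood at 4.79, 5.69, 16.7, 4.09 and 10.5 FPKM in the same order of libraries, starting with mock. The level of PSPC1 thus differed between the libraries compared, with and without PTK6. In Mahlavu, PSPC1 stood at 47.3 FPKM in mock, 30.8 with PSPC1-CT131 and 22.5 with Mut-NLS-CT131, so the gene's total did not show the fragment. Of 10 hepatocyte markers, all 10 reached 1 FPKM in Huh-7, and only SERPINA1 did in the SK-hep1 and Mahlavu libraries, where 6 to 8 of the 10 were at 0. Albumin was at 5948 FPKM in untreated Huh-7 and at 0 in every SK-hep1 and Mahlavu library. None of 6 endothelial markers reached 1 FPKM in SK-hep1 or Mahlavu. In Huh-7, 1 did so untreated and 2 after HGF, with PECAM1 at 5.31 and 4.12 FPKM and CDH5 at 0.894 and 1.82. In such bulk RNA, fewer cells that make a transcript and less of it per cell cannot be told apart.

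The 9 genes lie together on chromosome 16, within a stretch of 119.148 kb from 56565049 to 56684196 (GRCh38) that holds 16 of the 21 metallothionein loci in the tables. From the low to the high coordinate they are MT3 (56589074 to 56591088), MT2A (56608199 to 56609497), MT1E (56625475 to 56627112), MT1M (56632233 to 56633986), MT1A (56638666 to 56640087), MT1F (56657694 to 56660698), MT1G (56666731 to 56668065), MT1H (56669814 to 56671129) and MT1X (56682424 to 56684196). MT1G is read from the minus strand and the other 8 from the plus strand.

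The coding sequences show how alike these paralogs are and where they differ. Those of MT2A and MT1E, found in all 3 cell lines, and of MT1G, found in Huh-7 alone, are printed from the GENCODE 29 transcripts with the in-frame cysteine codons (TGC and TGT) in capitals.
MT2A: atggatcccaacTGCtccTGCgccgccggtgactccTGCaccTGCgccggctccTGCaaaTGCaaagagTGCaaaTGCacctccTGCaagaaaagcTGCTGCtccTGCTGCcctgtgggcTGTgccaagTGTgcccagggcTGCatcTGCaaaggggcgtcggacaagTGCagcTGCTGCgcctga
MT1E: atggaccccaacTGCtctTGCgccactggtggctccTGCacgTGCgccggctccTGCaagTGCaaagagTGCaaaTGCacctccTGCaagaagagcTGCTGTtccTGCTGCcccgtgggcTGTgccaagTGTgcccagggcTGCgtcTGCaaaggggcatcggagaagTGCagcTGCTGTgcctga
MT1G: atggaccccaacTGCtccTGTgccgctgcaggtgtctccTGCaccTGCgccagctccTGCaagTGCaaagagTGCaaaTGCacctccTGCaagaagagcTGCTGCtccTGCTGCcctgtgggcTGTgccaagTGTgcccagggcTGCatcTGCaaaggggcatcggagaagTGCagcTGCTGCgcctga
MT2A and the 7 MT1 genes each encode 20 cysteines, in 62 codons for MT1G and 61 for the others. Among the genes of equal coding length, pairs were 88.7% to 94.6% identical. MT2A and MT1E differed at 14 of 186 bases, and their longest shared run was 32 bases.

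Read splitting between these paralogs was examined in the annotated transcripts, introns left out. Identical windows of 50 bases in another gene made up 0% of the windows of MT3, 1.22% of MT1F, 3.02% of MT2A, 5.76% of MT1A, 7.10% of MT1E, 9.87% of MT1M, 15.8% of MT1H, 16.5% of MT1G and 18.3% of MT1X. At 100 bases, windows were shared only for MT1H, at 1.39% and with MT1HL1, and for MT1X, at 11.3%. At 150 bases no metallothionein gene shared a window with another, and MT1X alone shared 8.58% with AC026461.1. Reads with mismatches were not examined, and the treatment of reads with several alignments is not given in the sources used here.

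MT1X stood apart in this respect. The noncoding gene AC026461.1 lies on the same strand over 36.7% of the bases of the transcript MT1X-201, 165 of 450, and 70.1% of its 150-base windows touch the overlap. AC026461.1 itself had 0 reads in all 10 libraries. A counter that discards reads falling on 2 genes would lose such reads, and the counting mode was not given in the sources used here, so whether reads of MT1X were lost in this way was not tested. No exon of the other 8 genes was overlapped by another gene.

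Promoters were read from the RefSeq table (GRCh38.p14), 250 bases before to 50 after the transcript start. Of the 9 genes, 3 were found there, MT2A, MT1H and MT1X. Promoters of MT1A, MT1E, MT1F, MT1G, MT1M and MT3 were not found there and were not searched. The core of the metal response element was searched on both strands as TGCACNC or TGCGCNC, and matches on either strand are in capitals. MT2A is shown as a gene with reads in every library and MT1H as a gene with reads in Huh-7 only.
MT2A, chr16:56608334-56608633, plus strand: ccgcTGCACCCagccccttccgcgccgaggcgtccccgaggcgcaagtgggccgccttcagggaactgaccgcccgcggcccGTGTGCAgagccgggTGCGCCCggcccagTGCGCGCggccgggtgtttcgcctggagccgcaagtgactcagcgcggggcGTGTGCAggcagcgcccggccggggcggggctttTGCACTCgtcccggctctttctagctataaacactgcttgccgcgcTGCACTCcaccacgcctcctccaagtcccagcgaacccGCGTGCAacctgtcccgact
MT1H, chr16:56669564-56669863, plus strand: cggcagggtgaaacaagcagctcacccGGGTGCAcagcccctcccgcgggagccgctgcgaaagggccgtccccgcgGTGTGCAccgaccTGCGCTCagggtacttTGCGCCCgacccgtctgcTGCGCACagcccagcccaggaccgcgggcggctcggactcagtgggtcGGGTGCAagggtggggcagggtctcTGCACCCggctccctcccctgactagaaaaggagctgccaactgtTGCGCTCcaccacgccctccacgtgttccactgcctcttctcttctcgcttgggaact
MT2A and MT1H held 8 matches each and MT1X held 4. Of 35116 promoters of the same length, 29.6% held at least 1 match, 0.601% at least 4 and 0.0199%, or 7, at least 8. Both printed promoters had a match starting 8 bases before the transcript start. Only 3 of the 9 genes had a promoter to read, and a link between matches and expression was not tested.

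The libraries of the cell lines differed in the members of the cluster that they showed. The Huh-7 cells carried no construct, while the SK-hep1 and Mahlavu cells carried a mock control or a construct. The Huh-7 libraries were also deposited in another form, as FPKM alone. An effect of the line cannot be told apart from these differences between the libraries, and their part was not tested. The same limit applies to the folds between lines given below. MT2A and MT1E were the only members at 1 FPKM or more in SK-hep1 and Mahlavu, while Huh-7 had 7 of the 9. FPKM is the reads of a gene scaled to its length and to the total of its library, which allows levels of different genes to be set side by side. The brackets give 95% Wilson intervals, which cover the counting of reads only and not differences between cultures.

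MT2A, the main human metallothionein in many cell types, was the highest member in SK-hep1 and Mahlavu. In SK-hep1 it stood at 869.8 FPKM in mock (854.8 to 885.0), 475.2 with PSPC1 (463.7 to 486.9), 542.6 with PSPC1/PTK6 (531.4 to 554.1), 1090 with PSPC1-Y523F (1073 to 1108) and 1458 with PSPC1-Y523F/PTK6 (1440 to 1477). In Mahlavu it stood at 571.7 FPKM in mock (559.9 to 583.8), 318.7 with PSPC1-CT131 (309.3 to 328.4) and 715.5 with Mut-NLS-CT131 (701.1 to 730.3). In Huh-7 it stood at 89.8 FPKM untreated (84.3 to 95.5) and 78.2 after HGF (73.0 to 83.8). The 2 PSPC1-Y523F libraries were the highest and the 2 Huh-7 libraries the lowest, and no interval met that of the next library in the order. By FPKM, MT2A ranked between 54 and 388 among all genes in SK-hep1 and Mahlavu, and at 1507 and 1752 in Huh-7.

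MT1E, an MT1 isoform with the same metal-binding cysteines, ran at a lower level. In SK-hep1 it stood at 67.7 FPKM in mock (63.3 to 72.4), 41.2 with PSPC1 (37.7 to 45.0), 37.7 with PSPC1/PTK6 (34.6 to 41.0), 86.3 with PSPC1-Y523F (81.3 to 91.6) and 98.7 with PSPC1-Y523F/PTK6 (93.7 to 104.0). In Mahlavu it stood at 64.3 FPKM in mock (60.2 to 68.8), 26.02 with PSPC1-CT131 (23.3 to 29.1) and 79.8 with Mut-NLS-CT131 (74.8 to 85.2). In Huh-7 it stood at 50.3 FPKM untreated (46.0 to 55.0) and 36.0 after HGF (32.3 to 40.2). The 2 PSPC1-Y523F libraries were again highest, and the PSPC1-CT131 library was the lowest of the 10. Neighbours whose intervals met were PSPC1-Y523F and Mut-NLS-CT131, both mock libraries, PSPC1 and PSPC1/PTK6, and PSPC1/PTK6 and Huh-7 with HGF.

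**Figure D1:**
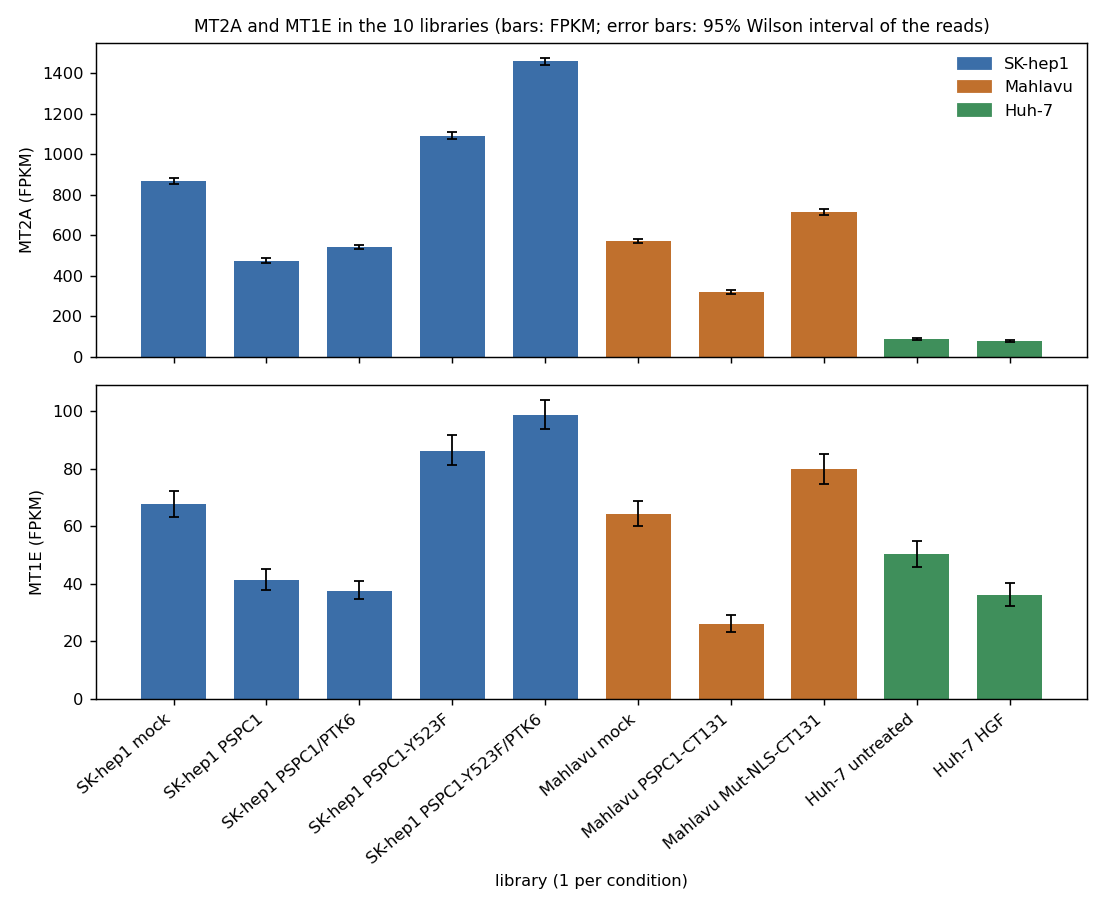
FPKM of MT2A (top) and MT1E (bottom) in the 10 libraries, coloured by cell line, with bars for the deposited value and error bars for the 95% Wilson interval of the reads. Within SK-hep1 and within Mahlavu both genes were lowest with PSPC1, PSPC1/PTK6 and PSPC1-CT131. MT2A was at 318.7 FPKM or more in these lines and at 89.8 and 78.2 in Huh-7, where MT1E kept within its range in the other lines.

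The level of MT2A over that of MT1E was lower in Huh-7 than in the other 8 libraries. In FPKM the ratio was 11.5 to 14.8 in the SK-hep1 libraries and 8.89, 12.2 and 8.96 in Mahlavu mock, PSPC1-CT131 and Mut-NLS-CT131. It was 1.79 (1.60 to 1.99) in untreated Huh-7 and 2.17 (1.91 to 2.47) after HGF. Set against untreated Huh-7, MT2A was 9.69-fold higher in SK-hep1 mock (9.08 to 10.3) and 6.37-fold higher in Mahlavu mock (5.96 to 6.81), and MT1E was 1.35-fold (1.20 to 1.51) and 1.28-fold (1.14 to 1.43) higher.

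MT1G, MT1H and MT1M, further MT1 isoforms, had 0 reads in all 8 SK-hep1 and Mahlavu libraries. A count of 0 allows 3 reads, which for MT1G would be at most 0.361 FPKM in these libraries. In Huh-7, untreated and after HGF, MT1G stood at 103 (95.9 to 110.8) and 76.3 FPKM (69.9 to 83.2), MT1H at 24.8 (21.7 to 28.3) and 14.7 (12.4 to 17.6), and MT1M at 24.7 (21.6 to 28.3) and 25.2 (22.0 to 28.9). Against 3 reads in SK-hep1 mock, untreated Huh-7 was 325-fold higher for MT1G, 98.0-fold for MT1H and 94.9-fold for MT1M. These folds leave out the counting error of the Huh-7 reads.

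MT1F and MT1A, also MT1 isoforms, were near 0 outside Huh-7. MT1F had 0 to 13 reads in each SK-hep1 and Mahlavu library, the highest value being 0.909 FPKM in Mut-NLS-CT131 (0.531 to 1.56). In Huh-7 it stood at 32.5 FPKM untreated (29.5 to 35.9) and 24.2 after HGF (21.5 to 27.2), which for the untreated cells was 50.3-fold over the 11 reads of Mahlavu mock (27.8 to 101.5). MT1A had 0 to 2 reads in each SK-hep1 and Mahlavu library, against 11.4 FPKM (9.09 to 14.3) and 12.1 FPKM (9.62 to 15.2) in untreated and HGF-treated Huh-7. Both genes thus reached 1 FPKM in Huh-7 only.

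MT1X and MT3 were the members not measured in any line. MT1X had 0 to 12 reads per library, at most 0.771 FPKM, in Mut-NLS-CT131, and 3 and 0 reads in the Huh-7 libraries, where its neighbours MT1G and MT1H were high. The part of the overlap with AC026461.1 in these values was not tested. MT3, the brain metallothionein, had 0 reads in all 10 libraries.

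**Figure D2:**
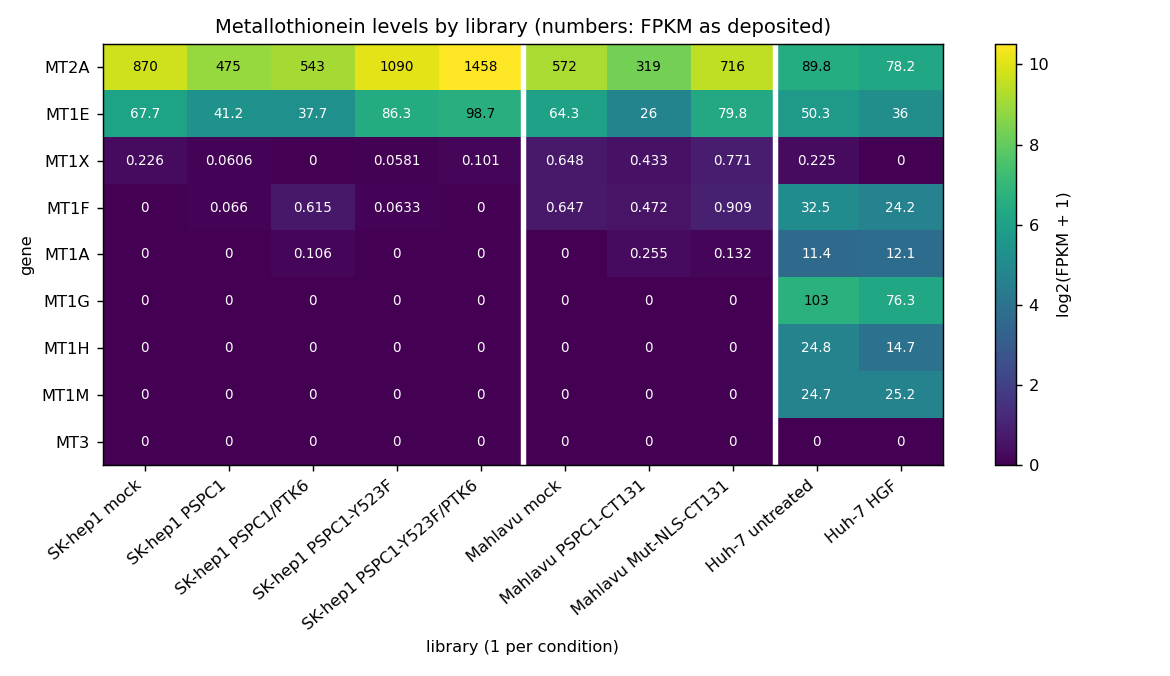
FPKM as deposited of the 9 genes (rows) in the 10 libraries (columns, grouped by cell line), with the colour showing log2(FPKM + 1). MT2A and MT1E are coloured throughout, MT1F, MT1A, MT1G, MT1H and MT1M in the 2 Huh-7 columns only, and MT1X and MT3 stay at or near 0.

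In untreated Huh-7, the order by FPKM was MT1G, MT2A, MT1E, MT1F, MT1H, MT1M and MT1A, and only the intervals of MT1H and MT1M met. Of the reads on the 9 genes, 31.7% were on MT2A, 23.6% on MT1G and 15.5% on MT1E. In the SK-hep1 and Mahlavu libraries, MT2A took 90.9% to 94.4% of them. The total on the 9 genes was 345.1 to 1043 reads per 1000000 reads on genes (RPM) in SK-hep1, 231.2 to 531.3 in Mahlavu, and 190.9 and 151.6 in untreated and HGF-treated Huh-7.

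**Figure D3:**
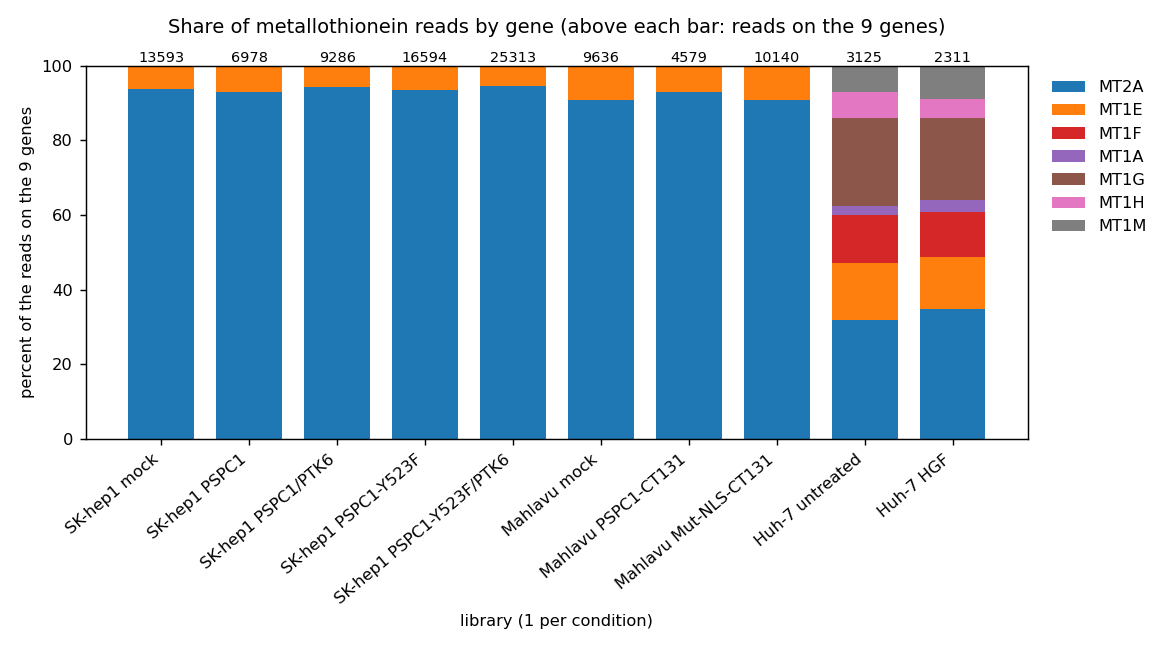
Percent of the reads on the 9 genes that fell on each gene, by library, with the number of reads above each bar. MT2A and MT1E made up nearly all reads in SK-hep1 and Mahlavu, and 7 genes shared them in Huh-7. MT1X and MT3, at less than 0.2% in every library, are not drawn.

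Differences between conditions within a line were taken as log2 fold changes of quantile-normalized FPKM + 1, over genes that averaged 1 FPKM or more in the libraries compared. A gene was counted as changed at 2-fold. In SK-hep1 and Mahlavu this left MT2A and MT1E of the 9 members, and in Huh-7 it left 7. Ratios of RPM are given beside them, with 95% Clopper-Pearson intervals for the counting of reads. RPM does not take out shifts of all genes, whose median log2 fold change in deposited FPKM ran from -0.29 to 0.20 between comparisons.

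With PSPC1 in SK-hep1, both genes were lower than in mock, by less than 2-fold. MT2A was at 0.546 of mock in RPM (0.530 to 0.563), a log2 fold change of -0.86, and MT1E was at 0.609 (0.544 to 0.681), a log2 fold change of -0.64. Of the 2 members measured 0 changed 2-fold, where 5.57% of all genes did. The change of MT2A lay at percentile 3.34 of the 12410 genes.

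With PSPC1/PTK6 both were again lower than in mock. MT2A was at 0.624 (0.607 to 0.641), a log2 fold change of -0.63, and MT1E at 0.556 (0.498 to 0.621), a log2 fold change of -0.90. Neither passed 2-fold, 0 of 2 members against 8.41% of all genes, although MT1E reached -1.03 with read counts scaled by DESeq2 size factors. Set against PSPC1 alone, the counting interval included 1 for MT1E and not for MT2A. In deposited FPKM, scaled to library totals as RPM is, the median log2 fold change of all genes in this pair was 0.20. MT2A was at 1.14 (1.11 to 1.18), a log2 fold change of 0.23, and this sign turned with TMM or DESeq2 scaling, to -0.02 and -0.06. MT1E was at 0.914 (0.807 to 1.04), with 0 of 2 members changed 2-fold and 4.96% of all genes. PSPC1 itself stood at 7.01 FPKM with PSPC1 and 26.4 with PSPC1/PTK6, so added PTK6 and more PSPC1 cannot be told apart here.

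With PSPC1-Y523F, both genes were higher than in mock. MT2A was at 1.25 (1.22 to 1.28) and MT1E at 1.27 (1.16 to 1.40), log2 fold changes of 0.33 and 0.34. With PSPC1-Y523F/PTK6 they were higher still, MT2A at 1.68 of mock (1.64 to 1.71) and MT1E at 1.46 (1.34 to 1.59), log2 fold changes of 0.70 and 0.55. None of these reached 2-fold, 0 of 2 members in each comparison, against 5.29% and 5.03% of all genes. Adding PTK6 to PSPC1-Y523F went with 1.34 for MT2A (1.31 to 1.36) and 1.14 for MT1E (1.06 to 1.24), 0 of 2 members changed 2-fold and 5.98% of all genes. These comparisons share the mock or the mutant library, so they are not separate observations of it. Between the 2 mutant libraries PSPC1 itself went from 2.28 to 70.9 FPKM, so added PTK6 and more PSPC1 cannot be told apart.

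The mutant set directly against wild-type PSPC1, a comparison added after the values had been seen, showed the widest gap in SK-hep1. PSPC1-Y523F held 2.29 times the MT2A RPM of PSPC1 (2.23 to 2.36) and 2.09 times the MT1E (1.88 to 2.34), log2 fold changes of 1.20 and 0.98. MT2A passed 2-fold, 1 of 2 members against 4.25% of all genes. MT1E passed it too with FPKM as deposited or scaled to the same sum and with quantile normalization within lines. It also did so with TMM, with DESeq2 size factors, and with length and GC content taken out. With PTK6 in both, the ratios were 2.69 for MT2A (2.62 to 2.75) and 2.62 for MT1E (2.37 to 2.90), log2 fold changes of 1.33 and 1.46. Here 2 of 2 members passed 2-fold, against 6.96% of all genes. Across genes, the fold changes of this pair followed GC content with Spearman's rho of 0.30, whose part was not tested. In both pairs the PSPC1 form with Y523F was thus higher for both genes. The level of PSPC1 differed too, at 2.28 FPKM for the mutant against 7.01 without PTK6, and 70.9 against 26.4 with it. The form of PSPC1 and its level cannot be told apart.

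In Mahlavu, PSPC1-CT131 went with less of both genes and Mut-NLS-CT131 with more. MT2A was at 0.557 of mock with PSPC1-CT131 (0.537 to 0.578), a log2 fold change of -0.96, and MT1E at 0.405 (0.354 to 0.462), a log2 fold change of -1.15. MT1E passed 2-fold, 1 of 2 members against 6.33% of all genes, but did not with read counts scaled by TMM or DESeq2. With Mut-NLS-CT131, MT2A was at 1.25 (1.22 to 1.29) and MT1E at 1.24 (1.13 to 1.36), log2 fold changes of 0.30 and 0.36, 0 of 2 members changed 2-fold and 6.42% of all genes.

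Between the 2 fragments, MT2A with PSPC1-CT131 was at 0.445 of Mut-NLS-CT131 (0.429 to 0.462) and MT1E at 0.326 (0.285 to 0.372), log2 fold changes of -1.26 and -1.51. Both passed 2-fold, 2 of 2 members against 8.82% of all genes, and MT2A lay at percentile 1.85 of 12453 genes. The PSPC1-CT131 library was shifted by base composition, since across genes its fold changes over mock and over Mut-NLS-CT131 followed GC content with Spearman's rho of 0.57 in each. The transcripts of MT2A and MT1E have 53.9% and 53.5% GC. Against mock, the log2 fold change of MT2A was -1.04 with length and GC content taken out, -0.55 with TMM and -0.52 with DESeq2 size factors. The part of base composition in these values was not tested. In the SK-hep1 comparisons, rho of the fold changes with GC content ran from -0.31 (PSPC1/PTK6 against PSPC1) to 0.30 (PSPC1-Y523F/PTK6 against PSPC1/PTK6). The part of base composition was not tested there either.

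**Figure D4:**
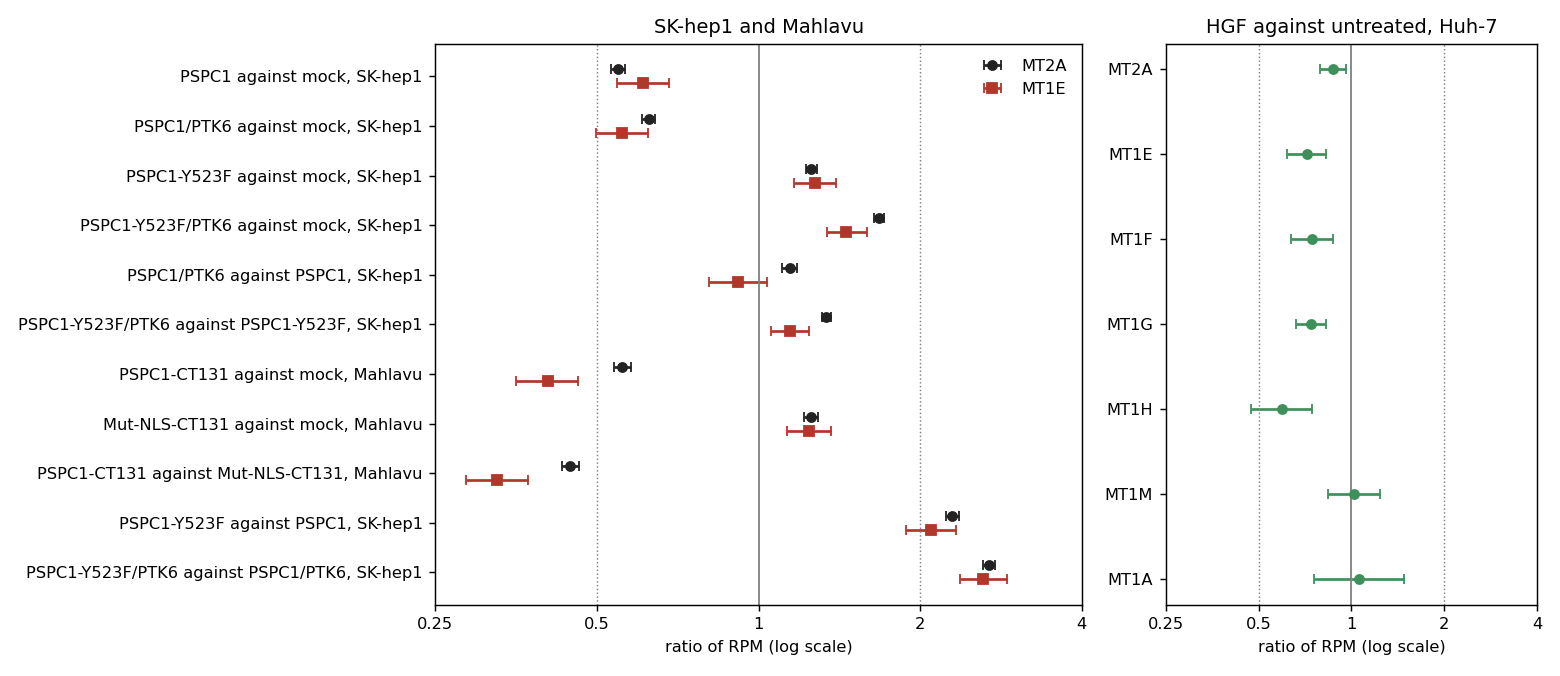
Ratios of RPM (reads per 1000000 reads on genes) with 95% counting intervals, on a log axis. Left, MT2A (circles) and MT1E (squares) in the 11 comparisons within SK-hep1 and Mahlavu. Right, the 7 members measured in Huh-7, HGF over untreated. Dotted lines mark 2-fold. PSPC1-CT131 against Mut-NLS-CT131 lies below the lower line for both genes and PSPC1-Y523F/PTK6 against PSPC1/PTK6 above the upper line.

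In Huh-7, HGF went with slightly less of most of the metallothioneins present. MT1H, with 222 reads before and 123 after, was at 0.595 of untreated (0.473 to 0.745), the lowest ratio, with a log2 fold change of -0.70. MT1E was at 0.717 (0.621 to 0.827), MT1G at 0.740 (0.659 to 0.830), MT1F at 0.743 (0.635 to 0.868) and MT2A at 0.872 (0.793 to 0.957), with log2 fold changes of -0.46, -0.42, -0.41 and -0.19. MT1M at 1.02 (0.837 to 1.24) and MT1A at 1.06 (0.756 to 1.48) did not differ beyond the counting of reads. Of the 7 members measured 0 changed 2-fold, where 0.82% of all genes did. Summed over the 9 genes, RPM was at 0.794 of untreated (0.752 to 0.838).

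MT2A and MT1E followed each other across libraries. With each line's mean taken out, their log2 values over the 8 SK-hep1 and Mahlavu libraries had Pearson's r of 0.97 and Spearman's rho of 0.93, and r was 0.98 over the 6 libraries left without the 2 farthest. The points share the library totals and the normalization, and the value is given as a description.

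MTF1, the zinc-sensing activator of these genes, was at 3.28 to 6.70 FPKM in the 10 libraries. In SK-hep1 it stood at 4.02 FPKM in mock, 3.28 with PSPC1, 3.59 with PSPC1/PTK6, 4.60 with PSPC1-Y523F and 3.62 with PSPC1-Y523F/PTK6. No comparison changed it 2-fold. SLC30A1, the zinc exporter of the plasma membrane and a textbook MTF1 target, stood at 3.94 FPKM in SK-hep1 mock, 2.11 with PSPC1, 4.22 with PSPC1/PTK6, 3.34 with PSPC1-Y523F and 4.45 with PSPC1-Y523F/PTK6. In Mahlavu it stood at 14.8 FPKM in mock, 7.16 with PSPC1-CT131 and 15.3 with Mut-NLS-CT131, and in Huh-7 at 3.47 and 3.70. Like MT2A, it was lowest with PSPC1 in SK-hep1 and with PSPC1-CT131 in Mahlavu. The log2 fold changes of its quantile-normalized FPKM + 1 against mock were -0.66 and -0.63, short of 2-fold. The deposited FPKM in Mahlavu, 14.8 and 7.16, lay further apart than this. Unlike MT2A, in FPKM it was not below mock with PSPC1/PTK6 or above mock with PSPC1-Y523F. It was also higher in Mahlavu than in SK-hep1, unlike MT2A.

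Among 9396 genes that averaged 5 FPKM or more, the 5 whose line-centred log2 values were most like the mean of MT2A and MT1E over these 8 libraries were SGMS2 (r of 0.94), TAF13 (0.93), SMIM13 (0.93), SLC30A1 (0.92) and STRN (0.91). The 5 were picked as the highest of the 9396 over these libraries, so a high r was set by the choice. Without the PSPC1-CT131 library, r lay between 0.88 and 0.93 for the 5. That value uses 7 of the same 8 libraries and is no separate check. All 5 have transcripts of 35.9% to 38.4% GC, against 53.9% for MT2A, and the PSPC1-CT131 library held less of GC-poor genes, whose part in these values was not tested. Without centring by line, 1 of the 5 stayed among the 5 most like. MTF1, with a mean under 5 FPKM, had r of 0.42, and 0.67 without the PSPC1-CT131 library.

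Other genes of metal handling were counted in lists. For these and the lists further below, 0.82% to 8.82% of all genes changed 2-fold in a comparison. With so few genes per list, a count of 0 does not set a list apart. Of 10 zinc exporters of the SLC30 family, 5 to 7 were measured in each comparison and 0 changed 2-fold in any of the 12. Their median log2 fold change ran from -0.39, in PSPC1-CT131 against Mut-NLS-CT131 (1 of 6 above 0), to 0.22, in PSPC1/PTK6 against PSPC1 (5 of 7 above 0), where the medians of all genes were 0.01 and -0.02. Of 14 zinc importers of the SLC39 family, 11 or 12 were measured. SLC39A4, the intestinal zinc importer, was higher with PSPC1 than in mock (26.9 against 11.8 FPKM, log2 fold change 1.11). SLC39A11 was higher with PSPC1/PTK6 than in mock (110.5 against 43.1 FPKM, log2 fold change 1.31) and with Mut-NLS-CT131 than in Mahlavu mock (62.4 against 26.4 FPKM, 1.36), and lower in PSPC1-Y523F/PTK6 than in PSPC1/PTK6 (35.1 against 110.5 FPKM, -1.50). Of 11 genes of copper handling, 8 to 10 were measured, and ATP7B, the copper pump defective in Wilson disease, was the only call, lower with PSPC1/PTK6 than in mock (10.3 against 21.0 FPKM, log2 fold change -1.13).

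Of 12 genes of the metal and oxidant response, 11 or 12 were measured, and HMOX1, TXNRD1 and HSPA1B changed 2-fold in SK-hep1. Of all genes, 4.25% to 8.41% did so in each SK-hep1 comparison. HMOX1, which degrades haem and is induced by metals and oxidants, stood at 657.4 FPKM in SK-hep1 mock, 307.6 with PSPC1, 164.0 with PSPC1-Y523F and 250.01 with PSPC1-Y523F/PTK6, log2 fold changes against mock of -1.10, -1.94 and -1.37. TXNRD1, the cytosolic thioredoxin reductase, stood at 858.6 FPKM in mock, 283.1 with PSPC1-Y523F and 393.2 with PSPC1-Y523F/PTK6, log2 fold changes of -1.56 and -1.06, and was also lower in PSPC1-Y523F than in PSPC1, at -1.27. Both were thus lower than mock in the 2 mutant libraries, where MT2A and MT1E were highest, while with PSPC1 HMOX1, MT2A and MT1E were all lower than mock. HSPA1B, a heat shock protein whose reads can be shared with its near-identical copy HSPA1A, was at 34.8 FPKM in mock, 70.7 with PSPC1 and 36.0 with PSPC1/PTK6.

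Of 9 genes of the glucocorticoid response, 6 to 9 were measured. PER1, a clock gene, was higher than in Mahlavu mock (8.31 FPKM) with PSPC1-CT131 (15.2 FPKM, log2 fold change 1.20) and with Mut-NLS-CT131 (31.6 FPKM, 2.03). SGK1, a kinase, was lower in PSPC1-Y523F/PTK6 than in PSPC1-Y523F (74.3 against 184.5 FPKM, -1.23). Of 8 other genes near the cluster on chromosome 16, 6 or 7 were measured. NUDT21, a subunit of a pre-mRNA cleavage factor, was lower with PSPC1-CT131 than with Mut-NLS-CT131 (104.5 against 208.7 FPKM, log2 fold change -1.06), and HERPUD1, a gene of the endoplasmic reticulum stress response, was higher with Mut-NLS-CT131 than in mock (279.8 against 144.1 FPKM, 1.04). In the SK-hep1 comparisons, planned and added, 0 of these neighbours changed 2-fold, where 4.25% to 8.41% of all genes did.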

How the data were processed

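The mutant that the labels call YF is named Y523F after the study. The members and gene lists were chosen with earlier results of these data known. Per the labels, poly-A RNA was selected, while the study's methods name rRNA depletion. The submitters' processing notes name TopHat2 2.0, HTSeq 0.6.1, edgeR and GRCh38.p12, without their roles. The authors deposited raw read counts per gene and FPKM for the SK-hep1 and Mahlavu libraries, and FPKM alone for Huh-7. After 8 lines without values were left out, each table held 58302 genes, named through GENCODE 29.

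The deposited FPKM equalled reads scaled by the library total and by 1 length per gene, which for 93.4% of genes was the rounded mean length of its transcripts. From these lengths, 100% of the Huh-7 values tested were whole reads within 0.01 (22724 and 22456 values), giving 16374128 and 15245935 reads. MT1G, MT1H and MT1M, without reads elsewhere, were recovered with the mean transcript length, accepted for 4167 of 4265 such genes.

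Quantile normalization, a step of the study, was run jointly for the 8 libraries of SK-hep1 and Mahlavu and for both Huh-7 libraries. Fold changes used a pseudocount of 1 and a mean of at least 1 FPKM. They are on the log2(FPKM + 1) scale, which understates changes of low genes. With 1 library per condition no test was run, a count model included, and no p-value is given. Without molecular identifiers, intervals and the floor of 3 reads cover counting error only. Genes named beyond the members were MTF1, SLC30A1, up to 3 listed genes per list and comparison past 2-fold, and the 5 most like genes. Of 12 comparisons, 2 were added after the values were seen.

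On simulated data for PSPC1 against mock, 4-fold changes passed 2-fold in 200 of 200 genes, as did 20 of 12711 genes simulated without a change. The simulation held counting error only, with no differences between cultures or in base composition. Its 4-fold changes were all increases, in genes averaging at least 5 FPKM. The 20 genes therefore give no rate of wrong calls for the real libraries. Alternatives were FPKM unchanged from the files or scaled to the same sum, a pseudocount of 0.1 or 5, quantile normalization within lines, no filter or 5 FPKM, TMM and DESeq2 scaling, and removal of length and GC content. Tools were Python 3.11.15, numpy 2.4.6, pandas 2.3.3, scipy 1.17.1, matplotlib 3.10.9, R 4.3.3, edgeR 4.0.16 and DESeq2 1.42.0. Fold changes of the authors were not used. Coding sequences were compared for 8 of the 9 genes, and the remaining sequence is not reported here.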

Additional observations from a re-analysis of the deposited data

Results flagged for a closer look

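MT1E moved in opposite ways when PTK6 was added to the 2 forms of PSPC1 in SK-hep1. Its log2 fold change was -0.2663 from PSPC1 to PSPC1/PTK6 and 0.2139 from PSPC1-Y523F to PSPC1-Y523F/PTK6, with 1 library in each condition. The counting interval of the first ratio includes 1 (0.807 to 1.04) and that of the second does not (1.06 to 1.24). The level of PSPC1 rose along with PTK6 in both pairs, and the difference was not tested.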

How the results depend on the processing

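No paired analysis was possible because each condition had 1 library. Of 269 alternative values of the members' log2 fold changes, 44 moved further than the distance from centre to edge of their log2 counting interval. The other 225 did not, and 0 called changes turned in sign. Leaving out the filter or setting it at 5 FPKM could not move a value, and those values are among the 225. MT2A from PSPC1 to PSPC1/PTK6 turned sign short of 2-fold, from 0.23 to -0.02 (TMM) and -0.06 (DESeq2). In PSPC1/PTK6 against mock the members changed 2-fold went from 0 to 1 with DESeq2 size factors. In PSPC1-CT131 against mock they went from 1 to 0 with TMM and with DESeq2 size factors, and to 2 with length and GC content taken out. In PSPC1-Y523F against PSPC1 they went from 1 to 2 with FPKM as deposited, FPKM scaled to the same sum, quantile normalization within lines, TMM, DESeq2 size factors, and length and GC content taken out. Without centring by line, 1 of the 5 genes most like the members was the same. The cause was not tested. FPKM as deposited or scaled to the same sum moved the median of all genes by up to -0.29 and -0.31, in PSPC1-Y523F/PTK6 against PSPC1/PTK6. TMM and DESeq2 scaling were not run for Huh-7. At 0 to 13 reads per library, changes of MT1A, MT1F and MT1X within SK-hep1 and Mahlavu are poorly measured.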

Other observations

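Metallothionein loci outside the 9 genes carried few reads. MT1L, a transcribed pseudogene in the same cluster, had 71 reads in untreated Huh-7, 17.7 FPKM (14.03 to 22.3), and 57 after HGF, 15.3 FPKM (11.8 to 19.8), against 0 to 3 in the SK-hep1 and Mahlavu libraries. In Huh-7 it thus stood above MT1A, which codes for protein, in FPKM, with intervals that met. MT1DP had 6 and 3 reads in Huh-7 and at most 2 elsewhere, and MT1B had 2 reads in the HGF library only. MT1HL1, on chromosome 1, had 3 reads in Mahlavu mock and in Mut-NLS-CT131, and MT1P1, on chromosome 9, had at most 4 reads in any library. The remaining loci, MT1CP, MT1JP, MT1IP, MT1P3, MT1XP1, MT2P1 and MT4, had 0 reads in all 10 libraries.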
